A study of Mus musculus with 12 samples.

Results

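The integrated stress response and the amino acid genes under it were followed as 10 transcripts, Atf4, Atf3, Ddit3, Trib3, Ddit4, Chac1, Asns, Psat1, Phgdh and Slc7a11, picked by symbol from a table of 35856 rows. All 10 symbols were present once, and all 10 were among the 15661 genes with at least 1 TPM (a read count corrected for the length of the transcript and then scaled to a fixed library total) in at least 2 of 12 libraries. Slc7a11 entered by a narrow margin, with 3 libraries at 1 TPM or more, each from auxin cells. The other 9 genes were at 1 TPM or more in all 12 libraries. The RNA was polyadenylated and came from cardiac precursors (CPs), early mesodermal cells of the heart lineage, made in culture from C57BL/6 mouse embryonic stem cells (ESCs). Each of 3 lines carried the plant protein Tir1 and an auxin-inducible degron (AID) on 1 subunit of Polycomb repressive complex 2 (PRC2), the methyltransferase that silences developmental genes. In SUZ12-AID the tag sat on the core subunit SUZ12, in MTF2-AID on the accessory subunit MTF2, and in AID-JARID2 on the accessory subunit JARID2. Auxin cells of every line were given indole-3-acetic acid at 50 µM, which directs tagged proteins to degradation in cells with Tir1, and untreated cells of the same line were their comparison, with 2 libraries in each of the 6 groups. The labels name 1 line for each subunit, no untagged line given auxin, and no start or length of treatment, so an effect of auxin itself or of a single clone cannot be told apart from loss of the subunit.

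In this pathway, kinases that sense missing amino acids, unfolded protein, haem shortage or viral RNA phosphorylate the translation factor eIF2, which slows protein synthesis overall and raises translation of the transcription factor ATF4. ATF4, usually paired with a C/EBP protein, then switches on genes for amino acid uptake and synthesis, for transfer RNA charging, and for feedback and cell death. Because ATF4 is controlled largely at translation, the level of Atf4 RNA is not a measure of ATF4 protein, which was not measured here.

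Reads counted to genes, recovered from the spacing of the TPM values, numbered between 10138108 and 17171510 a library. Reads that no gene row counted are not in these totals. Suz12, Mtf2 and Jarid2 RNA do not report loss of the tagged proteins, since auxin acts on protein. Jarid2 was at 104 to 113 TPM in auxin AID-JARID2 cells and at 43.5 to 45.3 TPM in untreated ones. Markers of cell identity moved with auxin in SUZ12-AID and AID-JARID2, by different lists, while in MTF2-AID only Itga2b was called among them. Of the 13 CP markers tested, 0 rose and 12 fell in AID-JARID2, where their summed level was 424 to 498 TPM with auxin and 2758 to 2848 TPM without, and 12 of 12 pluripotency markers rose, with sums of 3511 to 3574 TPM and 792 to 801 TPM. The CP label is thus not borne out by these markers in auxin AID-JARID2 cells, which are named here only by line and treatment. In SUZ12-AID the CP sum was 1762 to 1912 TPM with auxin and 2827 to 3117 TPM without, a lower sum that came from Hand1 (1033 ± 61.4 TPM with auxin, against 2421 ± 185 TPM without), since 6 of the 13 CP markers rose, Nkx2-5 and Hand2 among them, and Hand1 alone fell. Its pluripotency sum was 300.1 to 369 TPM with auxin and 176 to 199.9 TPM without, with 9 of 12 higher and 0 lower. MTF2-AID held CP sums of 1895 to 1915 TPM with auxin and 1845 to 1883 TPM without, and pluripotency sums of 226 to 237 TPM and 216 to 230.3 TPM, with 0 genes of either list called. Its endothelial markers summed to 64.3 to 73.1 TPM with auxin and 107 to 110.4 TPM without, with 0 of 8 called. Its blood markers summed to 13.6 to 17.3 TPM and 32.3 to 37.5 TPM, where Itga2b alone of 8 was called, lower (-0.98, limma, adjusted p = 0.0134). With the MTF2-AID libraries alone 0 genes were called, Itga2b included. Neural markers summed to 299 to 313 TPM with auxin and 82.3 to 86.2 TPM without in AID-JARID2, and endothelial markers to 142 to 153 TPM and 99.1 to 119 TPM in SUZ12-AID. The part of these shifts in the values below was not tested. In bulk RNA, fewer cells of a type and less RNA per cell cannot be told apart. Replicates are described as biological in the deposited design, without saying what was separate, so p values measure the spread between these libraries.

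ATF4 and C/EBP proteins bind a composite site, the C/EBP-ATF response element, and its letters were looked for in the promoters as a description of the genes. RefSeq promoters on GRCm38.p6, which run from 250 bases before the start site to 50 after it, were found for all 10 genes, 11 promoters in all. The motif TGATGNAA, searched on both strands, was present in promoters of 5 of the 10 genes, Atf3, Trib3, Chac1, Asns and Slc7a11, against 3.97% of 32851 RefSeq promoters. It was also in 2.26% of the promoters of genes tested here. Counting only bases before the start site, 4 of 10 genes held it, against 3.45% of all promoters, because the copy of Trib3 lies after the RefSeq start. The stretches that carry it are given because they differ in number, strand and distance. Letters read 5′ to 3′ on the strand of the gene, and capitals mark the motif or its reverse complement.
Atf3, chr1:191183406-191183473, minus strand: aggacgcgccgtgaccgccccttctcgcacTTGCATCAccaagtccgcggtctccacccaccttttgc
Chac1, chr2:119351019-119351086, plus strand: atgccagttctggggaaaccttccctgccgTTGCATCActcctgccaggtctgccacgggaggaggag
Slc7a11, chr3:50443623-50443709, minus strand: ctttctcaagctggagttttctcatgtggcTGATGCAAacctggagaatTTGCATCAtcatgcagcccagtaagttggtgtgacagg
Asns, chr6:7693215-7693242, minus strand: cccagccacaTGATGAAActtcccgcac
Trib3, chr2:152344029-152344056, minus strand: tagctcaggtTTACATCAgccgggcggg
Slc7a11 was alone among the 10 in having 2 copies, in opposite orientation, whose first bases lie 66 and 47 bases before the start. The copy of Asns begins 23 bases before the start, that of Atf3 110 bases before, and that of Chac1 193 bases before. These distances are from RefSeq starts, and GENCODE vM21, whose gene positions are given with the levels, differs: there the copy of Trib3 lies before the gene, and the copies of Asns and Atf3 lie within theirs. No copy was in the windows of Atf4, Ddit3, Ddit4, Psat1 or Phgdh, which says only that these letters are not in those 300 bases. The core letters of the antioxidant response element, TGACNNNGC on both strands, were in the promoters of Phgdh and Asns, 2 of 10 genes, against 12.4% of all promoters; the motifs did not overlap.

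Auxin was accompanied by higher levels of most of these transcripts in SUZ12-AID and AID-JARID2 cells, by different sets in each, and by no call in MTF2-AID cells. In SUZ12-AID, 6 of 10 genes rose and 0 fell, the 4 regulators Atf4, Atf3, Ddit3 and Trib3 with Ddit4 and Slc7a11. In AID-JARID2, 8 of 10 rose and 0 fell, namely Atf4, Atf3, Trib3, Chac1 and all 4 amino acid genes. The test was limma on log2(TPM + 1), two-sided, adjusted over the 15661 genes by the Benjamini-Hochberg method, with calls at an adjusted p under 0.05, and log2 fold changes below are on that scale. Of all genes tested, 15.1% rose and 4.05% fell in SUZ12-AID, 0.0639% were called in MTF2-AID, 0.0447% higher and 0.0192% lower, and 36.4% in AID-JARID2, 19.5% higher and 17.0% lower. In SUZ12-AID the higher genes were 78.8% of the calls, 61.0% with median-of-ratios scaling, 53.1% with quantile normalization and 55.9% without untreated replicate 1. Since Slc7a11 passed the filter through the groups where it is high, the counts over the other 9 genes were 5 higher in SUZ12-AID and 7 higher in AID-JARID2. For those 9 genes the median log2 fold change was 0.24 in SUZ12-AID, -0.02 in MTF2-AID and 0.58 in AID-JARID2, beside 0.06, 0.01 and 0.01 over all genes tested. In MTF2-AID, where limma called 0 of 10, 5 had an unadjusted p under 0.05, 3 of them higher and 2 lower, and limma voom on the recovered reads also called 0. The share of all genes at that unadjusted cut was not taken, so such counts, here and below, stand without a background. Both auxin libraries were above both untreated ones for 6 of the 10 genes in SUZ12-AID, 4 in MTF2-AID and 9 in AID-JARID2, where this held for 34.0%, 24.1% and 37.7% of all genes tested. They were below both for 0, 4 and 1 of the 10, where this held for 15.3%, 21.8% and 35.0% of all genes. Slc7a11 is among the 6 and the 9 counted as above, but not among the 4. Because it passed the filter through auxin libraries, its place in those 2 counts was favoured beforehand.

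**Figure D1:**
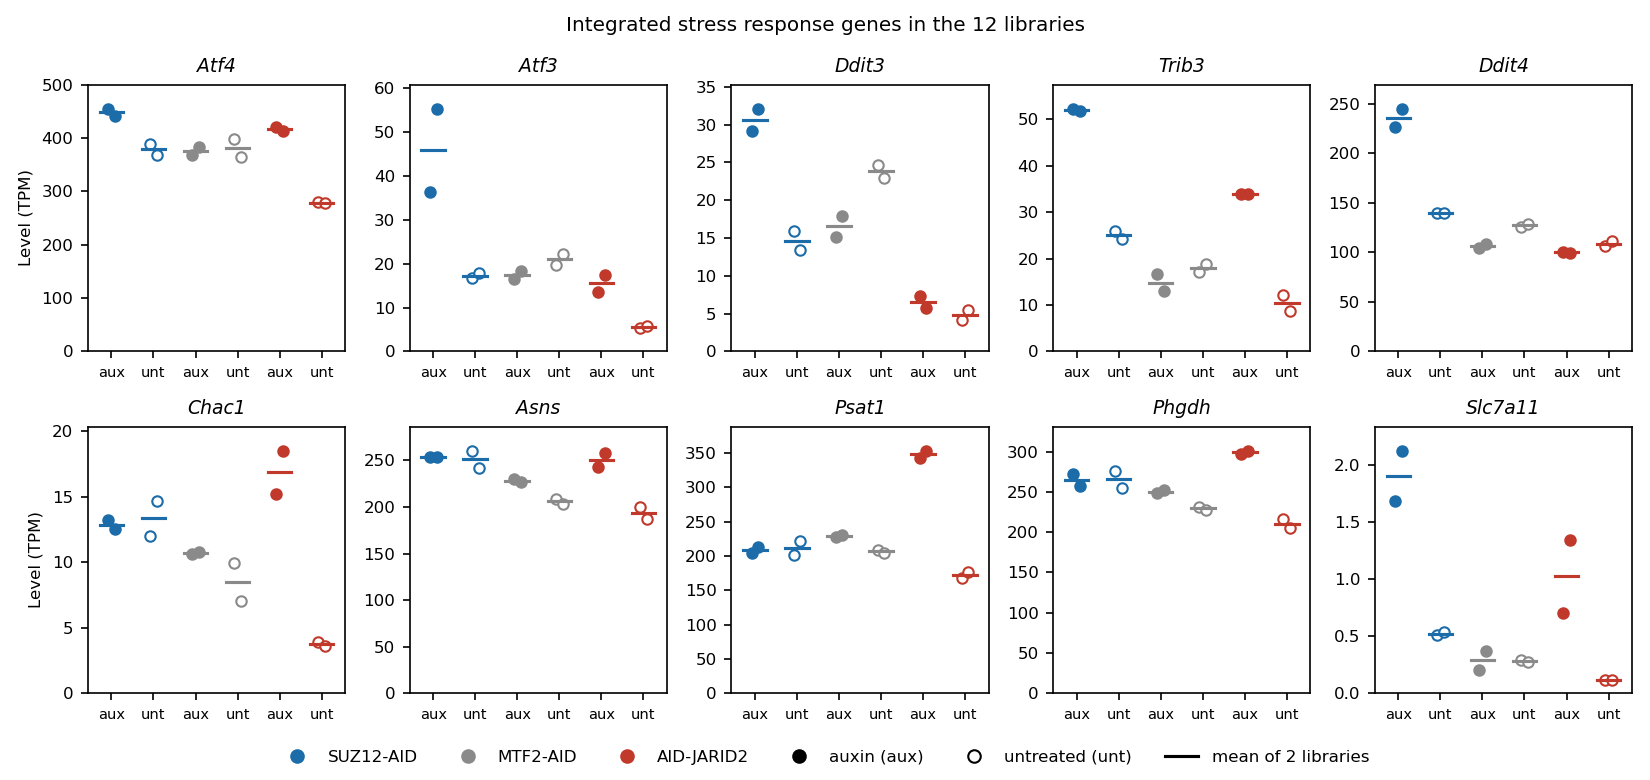
Level in TPM (vertical axes, from 0) of each gene in the 12 libraries, with auxin groups left of the untreated group of the same line, each point 1 library and each bar the mean of 2. Untreated AID-JARID2 libraries were below the untreated libraries of both other lines for every gene, and auxin SUZ12-AID cells had the highest mean of Atf4, Atf3, Ddit3, Trib3, Ddit4, Asns and Slc7a11.

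Among the regulators, Atf4, the transcription factor at the centre of the pathway (chromosome 15, 80255184 to 80257541, GENCODE vM21 on mm10), was the most abundant of the 10 genes in every group. It was at 455 and 441 TPM in auxin SUZ12-AID cells, against 389.5 and 368 TPM in untreated ones. In AID-JARID2 it was at 420.3 and 414 TPM with auxin, against 280.3 and 278 TPM without. The auxin and untreated libraries did not overlap in either line, while in MTF2-AID they did, with 369 and 384 TPM in auxin cells against 399 and 365 TPM in untreated cells (-0.02, limma, adjusted p = 0.961). Atf4 rose by a log2 fold change of 0.24 ± 0.051 (SE) in SUZ12-AID (limma, adjusted p = 0.00888) and 0.58 ± 0.051 in AID-JARID2 (limma, adjusted p = 1.43e-05). The SUZ12-AID call of Atf4 was lost with median-of-ratios scaling (0.16, adjusted p = 0.185), with a variance weight per line (adjusted p = 0.0684) and with the 4 libraries of that line alone (adjusted p = 0.122). Against its level in untreated SUZ12-AID, mean 379 TPM, and untreated MTF2-AID, mean 382 TPM, the level in untreated AID-JARID2 was low, mean 279 TPM.

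Atf3, a stress-induced factor of the same family (chromosome 1, 191170296 to 191218039), was at 36.3 and 55.3 TPM in auxin SUZ12-AID cells, against 16.8 and 17.8 TPM in untreated ones. With auxin AID-JARID2 cells had 13.6 and 17.5 TPM, against 5.26 and 5.9 TPM in untreated ones. All auxin libraries of these lines lay above their untreated ones, yet the auxin AID-JARID2 mean of 15.6 TPM was under that of untreated SUZ12-AID cells, 17.3 TPM, with overlapping libraries. The log2 fold changes of Atf3 were close, 1.33 ± 0.181 in SUZ12-AID (limma, adjusted p = 9.59e-04) and 1.32 ± 0.181 in AID-JARID2 (limma, adjusted p = 2.86e-04). MTF2-AID cells had 16.6 and 18.3 TPM with auxin, against 19.7 and 22.3 TPM without, a log2 fold change of -0.25 that was not called (limma, adjusted p = 0.737).

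Ddit3, which encodes the pro-death factor CHOP (chromosome 10, 127290774 to 127296288), was at 29.1 and 32.1 TPM in auxin SUZ12-AID cells, against 15.9 and 13.4 TPM in untreated ones, and rose by 1.02 ± 0.154 (limma, adjusted p = 0.00163). In AID-JARID2 it had 7.33 and 5.7 TPM with auxin, against 4.13 and 5.48 TPM without, a log2 fold change of 0.37 that was not called (limma, adjusted p = 0.0873). In MTF2-AID it had 15.2 and 17.9 TPM with auxin, against 24.7 and 23 TPM without. There both auxin libraries were below both untreated ones, with a log2 fold change of -0.50 and no call (limma, adjusted p = 0.284). With the 4 SUZ12-AID libraries alone, Ddit3 (adjusted p = 0.0535) and Atf3 (adjusted p = 0.0655) were not called in that line. In AID-JARID2, Ddit3 was called higher under 2 of the alternatives, without untreated replicate 2 (0.54, adjusted p = 0.0492) and with a variance weight per line (adjusted p = 0.0423).

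Trib3, a pseudokinase that binds ATF4 and restrains it (chromosome 2, 152337422 to 152344032), was at 52.3 and 51.9 TPM in auxin SUZ12-AID cells, against 26 and 24.3 TPM in untreated ones. Its auxin AID-JARID2 libraries were at 33.9 and 34 TPM, against 12.1 and 8.63 TPM without auxin. In both lines every auxin library was well above the untreated pair. Trib3 rose by 1.02 ± 0.146 in SUZ12-AID (limma, adjusted p = 0.00122) and by 1.64 ± 0.146 in AID-JARID2 (limma, adjusted p = 1.53e-05), and both calls held under all 22 alternative settings. MTF2-AID cells had 16.6 and 13.1 TPM with auxin, against 17.2 and 18.9 TPM without, which was not called (-0.27, limma, adjusted p = 0.619).

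The effectors Ddit4 and Chac1 each rose in 1 line. Ddit4, an inhibitor of the growth kinase complex mTORC1 that also answers to p53 and hypoxia (chromosome 10, 59949669 to 59951834), was at 227 and 245 TPM in auxin SUZ12-AID cells, against 140.0 and 139.9 TPM in untreated ones. It rose by 0.75 ± 0.0531 there (limma, adjusted p = 4.41e-05), a call kept under all 22 alternatives. AID-JARID2 cells had 100.5 and 99.7 TPM with auxin, against 106 and 111 TPM without, and MTF2-AID cells had 104 and 108 TPM, against 126 and 129 TPM. In these lines the auxin libraries were the lower ones, with log2 fold changes of -0.11 (limma, adjusted p = 0.128) and -0.27 (limma, adjusted p = 0.101). A variance weight per line called Ddit4 lower in both (adjusted p = 0.0377 in AID-JARID2 and 0.0228 in MTF2-AID).

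Chac1, an enzyme that degrades glutathione (chromosome 2, 119351229 to 119354381), was at 15.2 and 18.5 TPM in auxin AID-JARID2 cells, against 3.93 and 3.58 TPM in untreated ones. Chac1 rose by 1.90 ± 0.162 (limma, adjusted p = 1.11e-05), the largest change of the 10 genes in any line on log2(TPM + 1). Without the added 1 TPM Slc7a11 changed more in AID-JARID2, with a ratio of mean TPM of 8.76 against 4.48 for Chac1. The auxin level was near that of SUZ12-AID cells, which had 13.2 and 12.5 TPM with auxin and 12 and 14.7 TPM without. The SUZ12-AID libraries of Chac1 overlapped, with a log2 fold change of -0.05 and a 95% interval of -0.41 to 0.31. MTF2-AID cells had 10.6 and 10.8 TPM with auxin, against 9.95 and 7.03 TPM without, which was not called (0.32, limma, adjusted p = 0.598).

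The genes of amino acid synthesis and uptake rose in AID-JARID2. Psat1, the enzyme of the second step of serine synthesis (chromosome 19, 15904678 to 15947337), was at 343 and 353 TPM in auxin AID-JARID2 cells, against 168 and 176 TPM in untreated ones. It rose by 1.01 ± 0.0538 (limma, adjusted p = 4.25e-07), and the auxin AID-JARID2 libraries stood above the other 10 libraries, which ranged over 168 to 231 TPM. Phgdh, the enzyme of the first step (chromosome 3, 98313170 to 98339990), was at 297 and 301 TPM with auxin, against 216 and 205 TPM without, and rose by 0.51 ± 0.0523 (limma, adjusted p = 4.37e-05). Asns, asparagine synthetase (chromosome 6, 7675169 to 7693254), was at 243 and 258 TPM with auxin, against 200.2 and 187 TPM without, and rose by 0.37 ± 0.0536 (limma, adjusted p = 4.45e-04). The Asns levels of auxin AID-JARID2 cells overlapped those of SUZ12-AID cells, 254 and 254 TPM with auxin and 260.2 and 242 TPM without.

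In SUZ12-AID the auxin and untreated libraries of Psat1, Phgdh and Asns overlapped. The log2 fold changes were -0.02 for Psat1 (95% interval -0.14 to 0.10), -0.01 for Phgdh (-0.12 to 0.11) and 0.02 for Asns (-0.10 to 0.14). The same 3 genes were slightly higher in both auxin MTF2-AID libraries than in both untreated ones, by 0.14 for Psat1, 0.13 for Phgdh and 0.15 for Asns, and none of these was called (limma, adjusted p from 0.40 for Asns to 0.476 for Phgdh).

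Slc7a11, the cystine and glutamate exchanger that feeds glutathione synthesis (chromosome 3, 49892526 to 50443614), was the scarcest, with 5 to 94 reads a library. It was at 1.68 and 2.12 TPM in auxin SUZ12-AID cells, against 0.508 and 0.534 TPM in untreated ones, and at 0.705 and 1.34 TPM in auxin AID-JARID2 cells, against 0.121 and 0.113 TPM. MTF2-AID cells had 0.206 and 0.372 TPM with auxin, against 0.29 and 0.276 TPM without, and overlapped (0.00, limma, adjusted p = 1). Slc7a11 rose by 0.93 ± 0.198 in SUZ12-AID (limma, adjusted p = 0.00956) and 0.84 ± 0.198 in AID-JARID2 (limma, adjusted p = 0.00786), values that the added 1 TPM holds down. On recovered reads with limma voom they were 1.84 (adjusted p = 2.80e-04) and 2.98 (adjusted p = 4.11e-04). The SUZ12-AID call was lost with a variance weight per line and with the libraries of that line alone (limma, adjusted p up to 0.103). Neither call held without auxin replicate 2 of its own line, with 0.82 (adjusted p = 0.072) in SUZ12-AID and 0.61 (adjusted p = 0.0787) in AID-JARID2.

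**Figure D2:**
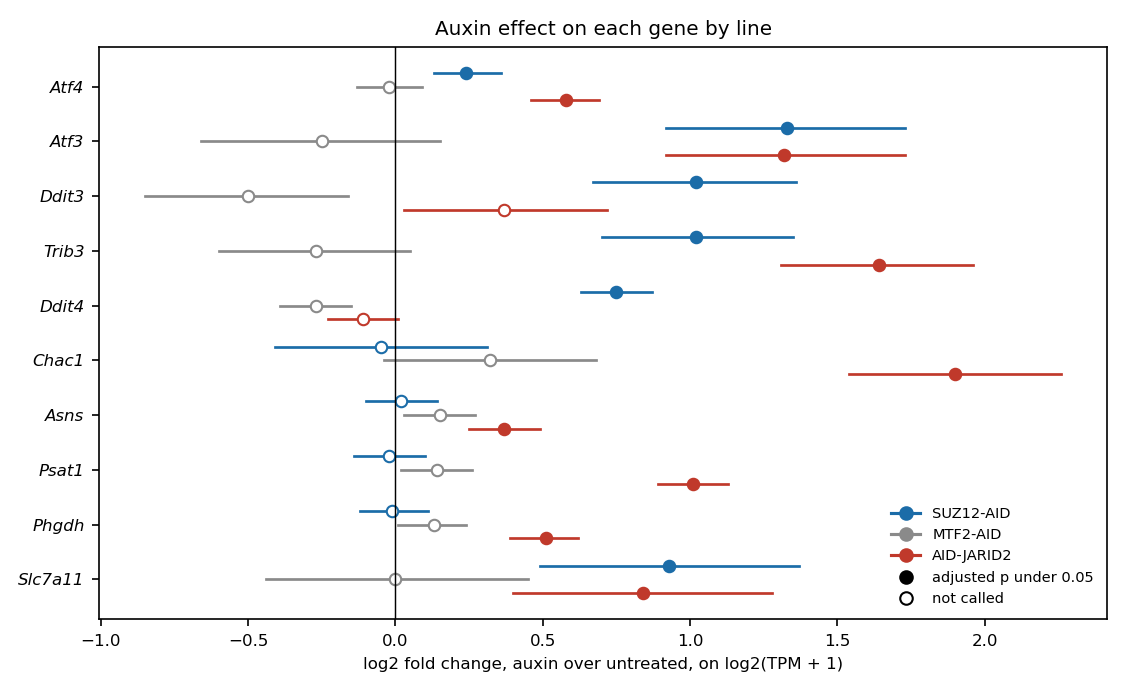
Log2 fold change of auxin over untreated cells on log2(TPM + 1) (horizontal axis) for each gene and line, with 95% intervals and filled points for adjusted p under 0.05. The regulators, Ddit4 and Slc7a11 were called in SUZ12-AID, the amino acid genes, Chac1 and 3 regulators in AID-JARID2, and none in MTF2-AID.

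Whether the auxin effect itself differed between lines was tested as a difference of log2 fold changes, each line against its own untreated libraries. AID-JARID2 exceeded SUZ12-AID for 5 genes and was below it for 1, where 24.0% of all genes tested differed, 9.0% upward and 15.0% downward. The 5 were Chac1 (1.95 ± 0.229; limma, adjusted p = 2.35e-04), Psat1 (1.03 ± 0.0761; 1.13e-05), Phgdh (0.51 ± 0.074; 8.49e-04), Asns (0.35 ± 0.0758; 0.00801) and Atf4 (0.33 ± 0.0721; 0.00788). Ddit4 was the 1 below, by -0.86 ± 0.0751 (limma, adjusted p = 3.53e-05). These 6 calls held under all 22 alternatives. For Slc7a11 the difference was -0.09 with a 95% interval of -0.71 to 0.54. For Atf3 it was 0.00 with a 95% interval of -0.57 to 0.57, so effects that differ by up to that much in either direction lie within it. Trib3 (0.62, limma, adjusted p = 0.056) and Ddit3 (-0.65, limma, adjusted p = 0.0571) lay just outside the threshold, and 6 and 5 of the alternatives called them.

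**Figure D3:**
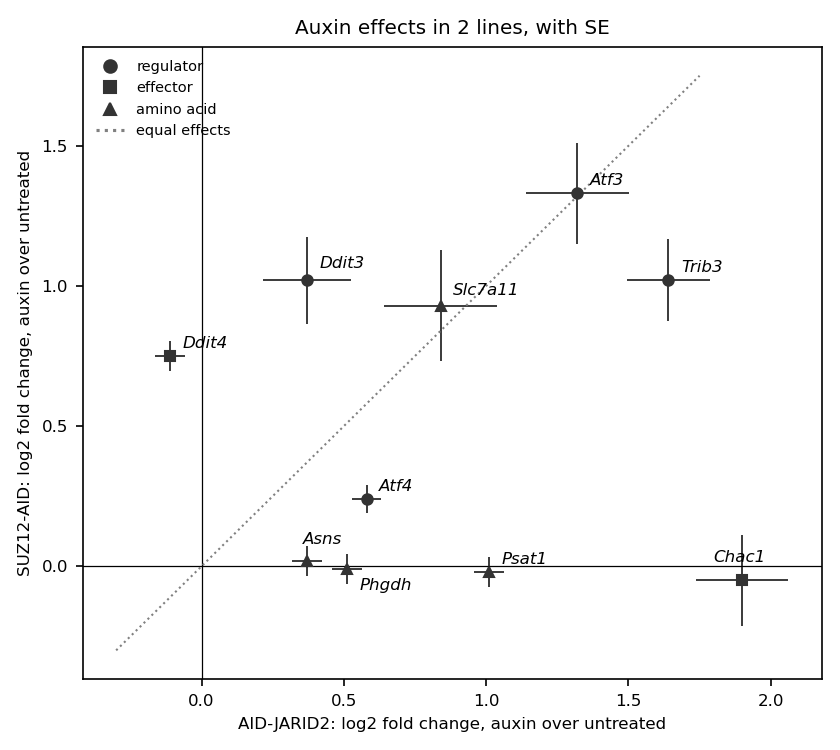
Log2 fold change of auxin over untreated cells in AID-JARID2 (horizontal axis) and SUZ12-AID (vertical axis) for each gene, with SE bars, a marker for its role and a dotted line of equal effects. Chac1, Psat1, Phgdh and Asns lie near 0 on the SUZ12-AID axis, Ddit4 near 0 on the AID-JARID2 axis, and Atf3 on the line of equal effects.

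MTF2-AID was below SUZ12-AID for 5 genes and above it for 0, where 11.1% of all genes tested differed, 2.0% upward and 9.11% downward. The differences were -1.58 for Atf3, -1.52 for Ddit3, -1.30 for Trib3, -1.02 for Ddit4 and -0.26 for Atf4 (limma, adjusted p from 2.33e-04 for Ddit4 to 0.0448 for Atf4). Slc7a11 (-0.92, limma, adjusted p = 0.0634), Chac1 (0.37), Psat1 (0.16), Asns (0.13) and Phgdh (0.13) were not called. At an unadjusted p under 0.05, 0 genes were above and 6 below, and limma voom called 4 in all. All but Atf4 held under the 22 alternatives, and Atf4 under 6 of them. AID-JARID2 exceeded MTF2-AID for 7 genes, with 12.6% of all genes tested higher and 11.7% lower, 24.3% in all. These were Trib3 (1.91), Chac1 (1.58), Atf3 (1.58), Ddit3 (0.88), Psat1 (0.87), Atf4 (0.60) and Phgdh (0.38), with limma adjusted p from 2.93e-05 for Psat1 to 0.0153 for Ddit3. Slc7a11 (0.83, limma, adjusted p = 0.0552), Asns (0.22, 0.0608) and Ddit4 (0.16, 0.169) were not called. Ddit3 lost its call without replicate 1 of any of the 4 groups of these lines, with adjusted p up to 0.0638. In at least 1 of these 3 pairs 9 of the 10 genes differed, all but Slc7a11, as did 35.5% of all genes tested. Some settings called Slc7a11 too. Its effect was called higher in AID-JARID2 than in MTF2-AID with limma voom, 0.1 TPM added, no filter, median-of-ratios scaling or a variance weight per line. In MTF2-AID it was called lower than in SUZ12-AID with 5 TPM added or no filter. The differences share libraries with each other and with the tests within lines, and are not separate evidence.

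The untreated lines differed before any auxin, and the AID-JARID2 increases began from low levels. All 10 genes had both untreated AID-JARID2 libraries below both untreated SUZ12-AID libraries, against 25.5% of all genes tested, and below both untreated MTF2-AID libraries, against 36.0%. Against untreated SUZ12-AID 9 were called lower and 0 higher, where 12.4% of genes tested were lower, 15.2% higher and 27.6% called. Chac1 (-1.59, limma, adjusted p = 7.30e-05), Atf3 (-1.48, 2.40e-04), Ddit3 (-1.43, 1.06e-04) and Trib3 (-1.22, 2.11e-04) differed most on log2(TPM + 1). Slc7a11 was not called on that scale (-0.45, limma, adjusted p = 0.125), though its ratio of mean TPM, 0.224, was under that of Chac1, 0.281, and limma voom called it (-2.13, adjusted p = 0.00875). Ddit4, Asns, Phgdh and Psat1 were lower by smaller amounts, log2 fold changes of -0.37, -0.37, -0.33 and -0.30, and Atf4 by -0.44. Against untreated MTF2-AID 7 were called lower and 0 higher, where 17.6% of genes tested were lower, 15.8% higher and 33.4% called, with Ddit3 at -2.11 (limma, adjusted p = 7.03e-06) and Atf3 at -1.74 (6.45e-05). The others lower were Chac1 (-0.98), Trib3 (-0.76), Atf4 (-0.45), Psat1 (-0.27) and Ddit4 (-0.24), while Asns (-0.09), Phgdh (-0.12) and Slc7a11 (-0.20) were not called in that pair. The call of Ddit4 was lost without untreated AID-JARID2 replicate 1 (adjusted p = 0.058). No gene was higher at an unadjusted p under 0.05 in either pair, and limma voom called 10 and 7 genes. Each line is 1 clone or culture history as far as the labels say, so line and subunit cannot be told apart here. These comparisons share the untreated AID-JARID2 libraries with the auxin comparison of that line, and a low level there enters both.

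Between the other untreated lines, MTF2-AID against SUZ12-AID, 1 gene was called higher and 3 lower, where 5.5% of genes tested were higher, 3.15% lower and 8.65% called. Both MTF2-AID libraries were above both SUZ12-AID libraries for 2 of the 10 and below for 6, against 30.6% and 18.2% of all genes. Ddit3 was higher by 0.67 (limma, adjusted p = 0.0263), at 24.7 and 23 TPM in MTF2-AID, against 15.9 and 13.4 TPM in SUZ12-AID. Asns was lower by -0.29 (limma, adjusted p = 0.0107), Phgdh by -0.21 (0.0357) and Chac1 by -0.61 (0.0455). Trib3 (-0.46), Atf3 (0.27), Slc7a11 (-0.25), Ddit4 (-0.13), Psat1 (-0.03) and Atf4 (0.01) were not called. Leaving out any 1 library left 0 to 3 of the 10 genes called, 0 of them without untreated MTF2-AID replicate 2.

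Taking all 6 groups, no single order of levels held for the genes. Atf3 was at 45.8 ± 13.5 TPM in auxin SUZ12-AID (SD, n = 2 here and below), then 21.0 ± 1.81 in untreated MTF2-AID, 17.5 ± 1.22 in auxin MTF2-AID, 17.3 ± 0.687 in untreated SUZ12-AID and 15.6 ± 2.7 in auxin AID-JARID2, the last 3 with overlapping libraries, and 5.58 ± 0.45 TPM in untreated AID-JARID2. Trib3 ran in another order, 52.1 ± 0.298 TPM in auxin SUZ12-AID and 34.0 ± 0.074 in auxin AID-JARID2, then 25.2 ± 1.2 in untreated SUZ12-AID, 18.1 ± 1.23 in untreated MTF2-AID, 14.9 ± 2.53 in auxin MTF2-AID and 10.4 ± 2.46 TPM in untreated AID-JARID2, with no neighbours overlapping. The spread of group means on the log2(TPM + 1) scale was 2.80 for Atf3, 2.45 for Ddit3, 2.24 for Trib3 and 1.90 for Chac1, and smallest for Asns, 0.39, Phgdh, 0.51, and Atf4, 0.68.

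Other genes of the pathway or of responses linked to it, 156 different ones in 9 lists that leave out the 10, are given by list. Among them are genes of oxidative stress, p53 and hypoxia. In SUZ12-AID 39 rose and 9 fell, in AID-JARID2 71 rose and 14 fell, and in MTF2-AID 0 rose and 1 fell, with 33 at an unadjusted p under 0.05 there. Over all genes tested, as above, 15.1% rose and 4.05% fell in SUZ12-AID, and 19.5% rose and 17.0% fell in AID-JARID2. In SUZ12-AID the share that rose was near this for the serine list (17.6%) and the mTORC1 list (14.3%), under it for the eIF2 list (5.26%) and the synthetases (0.0%), and above it in the other 5 lists, up to 64.3% for the glutathione list. In AID-JARID2 it was near the background for the mTORC1 list (21.4%) and 29.4% to 71.4% in the other 8, while the share that fell was near it for the ATF4 list (18.2%) and the p53 and hypoxia list (21.4%) and 0.0% to 11.8% elsewhere. Slc3a2 stands in more than one list. The SUZ12-AID counts lean on the spread shared by all 12 libraries: with the 4 libraries of that line alone, 0 genes of the ATF4, transporter, endoplasmic reticulum and synthetase lists were called, 1 of the glutathione list and 2 of the p53 and hypoxia list.

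Genes for eIF2, its kinases and its phosphatase factors mostly did not pass in SUZ12-AID, where 1 of 19 rose and 1 fell, with a median log2 fold change of -0.01. Ppp1r15a, the stress-induced phosphatase subunit GADD34 that reverses eIF2 phosphorylation, rose to 139 ± 15.3 TPM with auxin, against 69.3 ± 3.46 TPM without (0.99, limma, adjusted p = 8.32e-05). Eif2b5, a subunit of the exchange factor of eIF2, fell by 0.20 (limma, adjusted p = 0.0182). In AID-JARID2 7 of 19 rose and 1 fell, with a median of 0.20. Eif2s2 and Eif2s3x, subunits of eIF2, rose by 0.46 and 0.38, and Eif2ak3, the kinase PERK that senses unfolded protein, by 0.44 (limma, adjusted p = 0.0205 for Eif2ak3). The AID-JARID2 increases numbered 3 without auxin replicate 2 and 4 without untreated replicate 1, and the decrease was lost without any 1 library of that line. The SUZ12-AID decreases numbered 0 without auxin replicate 2, 2 without untreated replicate 1 and 3 without untreated replicate 2.

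Of 22 partners and other targets of ATF4, 8 rose and 0 fell in SUZ12-AID, with a median of 0.33. Cebpb, a C/EBP partner, rose by 0.86 (43.0 ± 1.29 TPM with auxin, against 23.2 ± 2.1 TPM without), Stc2, a secreted glycoprotein, by 0.67, and Sqstm1, the autophagy receptor p62, by 0.66 (limma, adjusted p from 6.27e-05 to 0.00298). In AID-JARID2 10 rose and 4 fell, with a median of 0.34. Sesn2, a leucine sensor that restrains mTORC1, rose by 1.03 (153 ± 3.25 TPM with auxin, against 74.3 ± 0.506 TPM without), while Jdp2, a repressor of the AP-1 and ATF family, fell by 1.96 and Vldlr, a lipoprotein receptor, by 1.65 (limma, adjusted p up to 1.08e-05 over the 3). The increases in AID-JARID2 numbered 4 without auxin replicate 2 and 6 without untreated replicate 2, and the decreases 2 without any 1 of auxin replicate 1 or 2 or untreated replicate 1 or 2.

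Among other genes of serine, glycine and one-carbon metabolism, 3 of 17 rose and 3 fell in SUZ12-AID, with a median of -0.06. Cbs, which makes cystathionine from homocysteine and serine, rose by 0.61, Aldh1l1, a folate enzyme, by 0.57 and Gldc, of the glycine cleavage system, by 0.46. The decreases were 0 without auxin replicate 2. In AID-JARID2 5 rose and 2 fell, 1 falling without any 1 library of that line, with a median of 0.14. Gldc was at 219 ± 1.71 TPM with auxin, against 71.5 ± 1.8 TPM without (1.60, limma, adjusted p = 6.38e-08), Cbs rose by 1.60 and Amt, also of glycine cleavage, by 1.02. As differences of effects, 8 of the 17 were higher and 1 lower in AID-JARID2 than in SUZ12-AID, where 9.0% of all genes tested were higher and 15.0% lower.

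The cytoplasmic tRNA synthetases, which charge tRNAs with amino acids, had median changes of opposite sign in these lines. Of 20 tested, 0 rose and 4 fell in SUZ12-AID, among them Mars (-0.25), Vars (-0.22) and Kars (-0.17; limma, adjusted p from 0.00315 to 0.0178), and the decreases numbered 1 without auxin replicate 2 and 7 with median-of-ratios scaling. In AID-JARID2 11 rose and 1 fell, led by Tars (0.58), Iars (0.52) and Aars (0.48), with Aars at 264 ± 0.309 TPM with auxin, against 188 ± 0.581 TPM without. The medians were -0.08 and 0.16. The difference of effects, AID-JARID2 minus SUZ12-AID, was called higher for 12 of 20 and lower for 0. Over all genes tested that difference was called higher for 9.0% and lower for 15.0%. In MTF2-AID 0 were called, with 10 higher and 0 lower at an unadjusted p under 0.05. No excess over all genes is claimed from this, since their share at that cut was not taken.

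Of 17 amino acid transporters, 6 rose and 0 fell in SUZ12-AID, with a median of 0.21, and the increases numbered 3 without auxin replicate 2, and the decreases 4 without untreated replicate 1. Slc7a8, which carries large neutral amino acids, rose by 1.19, Slc38a3, a glutamine transporter, by 1.08 and Slc7a7, of the cationic amino acid system, by 0.80. In AID-JARID2 10 rose and 2 fell, with a median of 0.51. Slc7a3, a cationic amino acid transporter, was at 130.0 ± 7.21 TPM with auxin, against 14.9 ± 1.77 TPM without (3.05, limma, adjusted p = 2.78e-08). Slc7a7 rose by 2.87, while Slc38a4, a neutral amino acid transporter, fell to 117 ± 0.0417 TPM, against 466 ± 30.8 TPM without auxin (-1.98, limma, adjusted p = 1.18e-06). The summed CP and pluripotency markers given above moved with these values in AID-JARID2, and their part was not tested.

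**Figure D4:**
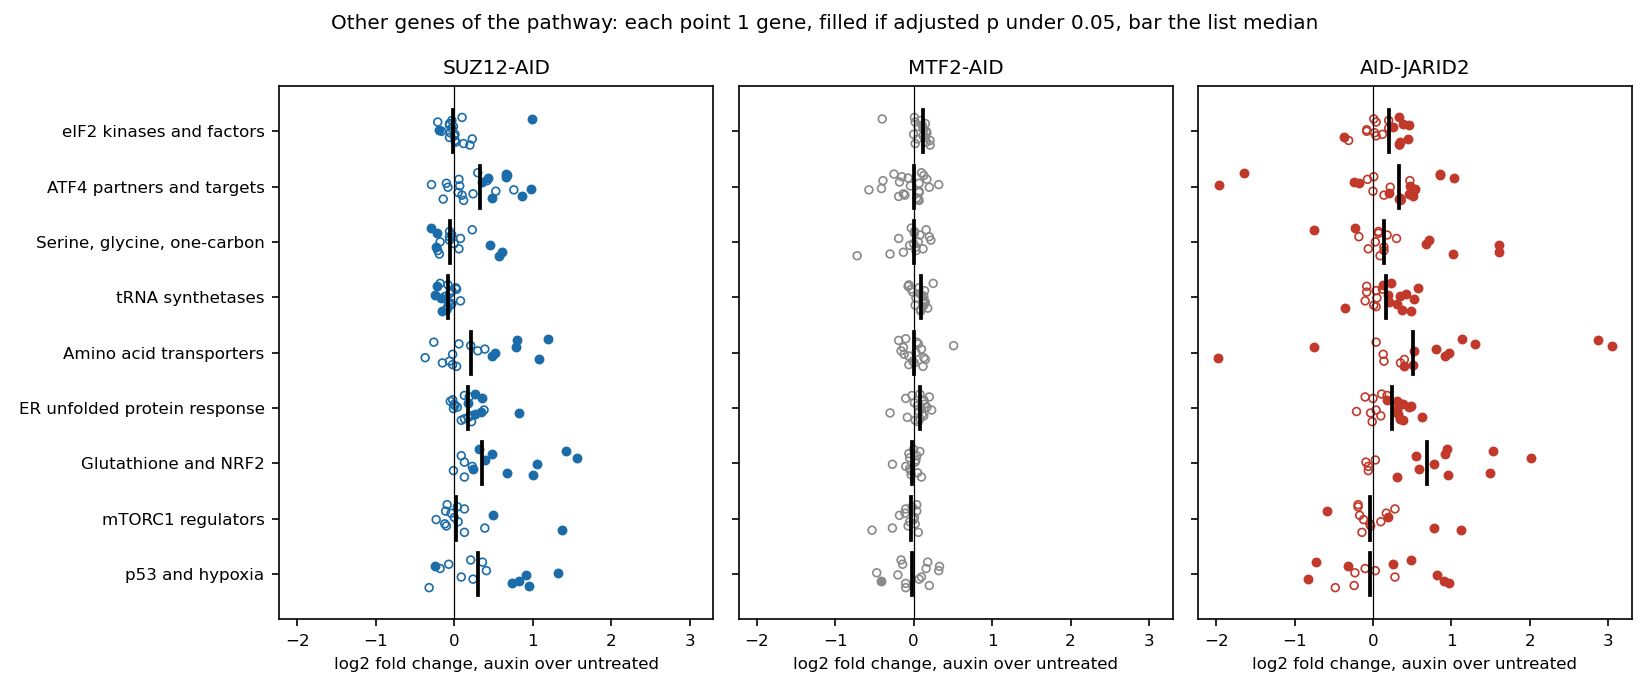
Log2 fold change of auxin over untreated cells (horizontal axis) for genes of 9 lists in 3 lines, each point 1 gene, filled where the adjusted p was under 0.05, and bars the list medians. The median of the tRNA synthetases lies left of 0 in SUZ12-AID and right of it in AID-JARID2, and that of the glutathione and NRF2 genes right of 0 in both.

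The next list held genes of the unfolded protein response of the endoplasmic reticulum, which shares the eIF2 arm. Of these, 6 of 20 rose in SUZ12-AID and 11 of 20 in AID-JARID2, and 0 fell in either. Dnajb9, a chaperone cofactor, rose by 0.82 in SUZ12-AID (19.3 ± 1.57 TPM with auxin, against 10.5 ± 1.17 TPM without), Sdf2l1 by 0.36 and Edem1 by 0.34. The SUZ12-AID count was 1 without auxin replicate 2, 10 without untreated replicate 2, and 2 with median-of-ratios scaling. In AID-JARID2 Creld2 rose by 0.62, the chaperone Hyou1 by 0.49 and the chaperone BiP, encoded by Hspa5, by 0.46 (616 ± 11.7 TPM with auxin, against 447 ± 1.96 TPM without; limma, adjusted p = 2.60e-05). At an unadjusted p under 0.05, 0 fell in SUZ12-AID and 0 in AID-JARID2.

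Genes of glutathione and of NRF2, the factor of the oxidative stress response, also a regulator of Slc7a11, rose in 9 of 14 cases in SUZ12-AID and 10 of 14 in AID-JARID2, and 0 fell in either by limma or by voom. The medians were 0.35 and 0.69. Nqo1, a quinone reductase, rose to 27.1 ± 5.39 TPM with auxin in SUZ12-AID, against 8.45 ± 0.105 TPM without (1.56), and Srxn1, sulfiredoxin, by 1.43 and Hmox1, haem oxygenase, by 1.06. In AID-JARID2 Nqo1 rose by 2.01, Srxn1 by 1.53 and Gclm, a subunit of the enzyme that starts glutathione synthesis, by 1.49 (limma, adjusted p = 6.31e-07 for Gclm).

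Regulators of mTORC1 and genes of the p53 and hypoxia inputs to Ddit4 were split. Of 14 mTORC1 regulators, 2 rose and 0 fell in SUZ12-AID, and 3 rose and 1 fell in AID-JARID2, 5 rising there without SUZ12-AID untreated replicate 1 or 2. Ddit4l, the paralog of Ddit4, was at 38.7 ± 0.075 TPM with auxin in SUZ12-AID, against 14.5 ± 1.58 TPM without (1.37, limma, adjusted p = 1.37e-04), and rose by 1.12 in AID-JARID2, where Ddit4 was not called. Rragc, of the amino acid sensing Rag complex, rose by 0.50 in SUZ12-AID and Rraga by 0.19 in AID-JARID2, where Sesn1 fell by 0.58. Of 14 genes of the p53 and hypoxia list, 5 rose and 1 fell in SUZ12-AID, with 9 rising without untreated replicate 2, and 5 rose and 3 fell in AID-JARID2. Ndrg1, a hypoxia and stress gene, rose by 1.32 in SUZ12-AID, Bnip3, a mitophagy gene induced in hypoxia, by 0.95, and Mdm2, the p53 ubiquitin ligase, by 0.91. In AID-JARID2 the p53 targets Ccng1 and Cdkn1a rose by 0.97 and 0.91, while Egln3, an oxygen-sensing hydroxylase, fell by 0.83. The single gene of the 9 lists called in MTF2-AID was the p53 target Cdkn1a. It fell to 115 ± 5.79 TPM with auxin, against 153 ± 0.31 TPM without (-0.41, limma, adjusted p = 0.0384). That call leans on the spread shared by all 12 libraries, since with the MTF2-AID libraries alone 0 genes were called.

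Over the 12 libraries, profiles most like each variable member were sought among 10842 genes by the root mean square difference of centred log2(TPM + 1). This is a description over libraries that share groups and depth. Nearest to Atf3 was Plk2 (0.158), to Ddit3 Bend7 (0.126), to Ddit4 Sqstm1 (0.0859), to Trib3 Rprm (0.207), to Chac1 Id2 (0.193), to Psat1 Mfsd7b (0.0932) and to Slc7a11 Gsto1 (0.162). The next were Thsd1 (0.183), Nfic (0.203), Hpcal1 (0.0969), Ass1 (0.227), Slc35d3 (0.316), Spry2 (0.0979) and Bhlhe40 (0.162), in the same order of members. None of the 7 had another of the 10 genes nearest to it. Slc7a11, at most 2.12 TPM, was not among the genes searched, so it could not be a neighbour of the others. The closest other member ranked 91st for Ddit3, which was Atf3, 99th for Atf3, which was Ddit3, and 62nd for Chac1, which was Psat1. For Trib3 it was Chac1 at rank 142, for Psat1 Phgdh at rank 221, for Slc7a11 Atf4 at rank 278, and for Ddit4 Atf4 at rank 1229.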

How the data were processed

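Polyadenylated RNA was sequenced in 12 stranded libraries, 2 for each of 6 groups. The authors deposited 1 table of TPM values; per the submitters' processing notes reads were aligned with STAR 2.6.1d to mm10, while for counter and annotation the entry is "not given in the sources used here". Columns were matched to samples by name. Of values above 0, 98.98% were whole multiples of 1 read within 0.02 reads, and those reads gave the depths. The rest were genes seen in 1 library. The 15661 genes that reached 1 TPM in 2 or more libraries were fitted on log2(TPM + 1) with limma 3.58.1 in R 4.3.3, 1 term per group, eBayes with trend, 6 residual and 3.9 prior degrees of freedom. A check on simulated reads used 1 spread and 1 set of baseline levels for all lines. The estimated variance weights were 0.5 for SUZ12-AID, 1.29 for MTF2-AID and 1.54 for AID-JARID2. The check therefore cannot show how the test fares where lines differ in spread. Precision rests on 2 libraries a group. The 10 genes, the lists and the tests were chosen with earlier results of these data known. All 10 genes are named in each comparison. From each other list up to 3 called genes a line are named, with the largest log2 fold changes among those with at least 5 TPM in the higher group and no overlap of libraries, or fewer where fewer passed. For likeness, members whose group means span at least 1 were compared with genes averaging at least 5 TPM. The list name Mars1 is absent as a row and Mars is present, Castor1 and Castor2 are absent, and Aldh1l2 was below the filter. Alternatives were 10 settings and leaving out each of 12 libraries. Positions are from GENCODE vM21 on mm10 and promoters from RefSeq on GRCm38.p6.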

Additional observations from a re-analysis of the deposited data

Results flagged for a closer look

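The auxin effect differed between lines for 9 of the 10 genes, by tests of the difference itself, in at least 1 of 3 pairs of lines, where 35.5% of all genes tested differed in at least 1. AID-JARID2 minus SUZ12-AID gave Chac1 1.95, Psat1 1.03, Phgdh 0.51, Asns 0.35, Atf4 0.33 and Ddit4 -0.86 on the log2 scale. MTF2-AID minus SUZ12-AID gave Atf3 -1.58, Ddit3 -1.52, Trib3 -1.30, Ddit4 -1.02 and Atf4 -0.26. AID-JARID2 minus MTF2-AID gave Trib3 1.91, Chac1 1.58, Atf3 1.58, Ddit3 0.88, Psat1 0.87, Atf4 0.60 and Phgdh 0.38. The p values and standard errors stand beside these genes in the comparison of lines. Groups of 2 libraries were not examined for outlying samples.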

How the results depend on the processing

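No called result reversed direction under the 22 alternatives. Of the 10 genes, those called in SUZ12-AID numbered 6. They numbered 5 with median-of-ratios scaling, 4 with a variance weight per line and 2 with only the libraries of that line (Ddit4 and Trib3). In MTF2-AID they numbered 0, 1 with a variance weight per line, and 0 whichever library was left out. In AID-JARID2 they numbered 8, and 7 to 9 with 1 library left out. For untreated MTF2-AID against SUZ12-AID they numbered 4, 1 with no filter on low values, 1 with the variance weight, 2 with only the libraries compared, and 0 to 3 with 1 left out. Of all genes, SUZ12-AID calls numbered 2997, 1194 with the weight, 156 with that line alone and 1375 to 3429 with 1 library left out, the lowest without auxin replicate 2. MTF2-AID calls numbered 10, 6 with a pseudocount of 0.1, 30 with 5, 21 without the filter, 17 with quantile normalization, 164 with the weight, 0 with the line alone and 5 to 38 with 1 left out. MTF2-AID minus SUZ12-AID calls numbered 1740, 1103 with the weight, 1028 with these lines alone and 936 to 2462 with 1 left out. Untreated MTF2-AID against SUZ12-AID calls numbered 1355, 845 with the weight, 710 with these lines alone and 522 to 4089 with 1 left out. With 1 left out, untreated AID-JARID2 calls ranged over 2355 to 5632 against SUZ12-AID and 3399 to 6113 against MTF2-AID. A replicate block gave 6 of the 10 genes in SUZ12-AID, 0 in MTF2-AID and 8 in AID-JARID2, and 4 and 2156 calls over all genes in MTF2-AID and in untreated MTF2-AID against SUZ12-AID. Differences between replicates 1 and 2 correlated weakly between auxin and untreated cells (0.0958 in SUZ12-AID, -0.0388 in MTF2-AID and 0.00803 in AID-JARID2). The labels do not say whether same-numbered samples were prepared together, and with 2 libraries a group these values cannot decide it. Quantile normalization moved the median of all genes by -0.102 in SUZ12-AID and by 0.105 in both differences against it. Among calls, the higher share was 70.0% of 10 in MTF2-AID, 52.9% with quantile normalization and lower with a pseudocount of 5 (40.0%), no filter (42.9%), the weight (33.5%), voom (28.6%) and without SUZ12-AID untreated replicate 1 or 2 (47.4% each). It was 18.0% in MTF2-AID minus SUZ12-AID, 30.6% with median-of-ratios scaling and 35.3% with quantile normalization, and 37.5% in AID-JARID2 minus SUZ12-AID and 50.5% with it. Without SUZ12-AID untreated replicate 1 these shares were 43.6% and 49.3%, and that of SUZ12-AID 55.9%. It was 63.5% for untreated MTF2-AID against SUZ12-AID and 50.7% with it, and 79.2% without SUZ12-AID untreated replicate 2, which also moved untreated AID-JARID2 against SUZ12-AID to 69.6%. Slc7a11 could not be fitted with a filter of 5 TPM. The cause of these changes was not tested. With 2 libraries a group, small changes are beyond these data.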
